A study of Mus musculus with 4 samples.

Results

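The cells described here are the posterior and the anterior mesenchyme of the mouse hindlimb bud at embryonic day 11.5 (E11.5), separated inside 1 single-cell RNA library by the transcripts they held. Of 2683 cell barcodes in the library, 2640 had at least 200 genes and at most 10% of their UMIs (unique molecular identifiers, each standing for a captured transcript) from mitochondrially encoded genes. Of these, 1241 held at least 1 UMI of Prrx1, a homeobox gene of limb bud mesenchyme, and none of the endothelial gene Cdh5 or the epithelial gene Epcam. Posterior cells held at least 2 UMIs of Hand2 and none of Alx4 or Pax9, and anterior cells held at least 2 UMIs of Alx4 and Pax9 together and none of Hand2. This gave 299 posterior cells, or 24.1% of the Prrx1 cells (21.7 to 26.6, exact Clopper-Pearson 95% interval), and 55 anterior cells, or 4.43% (3.36 to 5.73). The remaining Prrx1 cells were 532 with none of the 3 genes, 236 with 1 UMI of Hand2 alone, 84 with 1 UMI of Alx4 or Pax9 and no Hand2, and 35 with Hand2 beside Alx4 or Pax9. The groups are therefore 354 of 10272 barcodes in the 4 libraries of the study.

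The study profiled hindlimb cells with 1 droplet library (10x Chromium, 3' chemistry) at each of 4 stages from E11.5 to E18.5. Both groups come from C57BL/6 embryos of 1 litter, without any treatment or engineered allele named in the labels. Hindlimbs of several littermates were pooled, dissociated with collagenase and pronase, frozen, thawed and depleted of dead cells, so embryos and left and right limbs are mixed and the place of a cell in the bud was not recorded. A single library allows neither a replicate check nor a test, and every value below compares cells of this library. Ranges in parentheses are exact 95% intervals. They cover counting error only and treat each UMI as independent.

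The limb bud has a posterior signalling centre, the zone of polarising activity, whose cells secrete Sonic hedgehog (Shh). Hand2 is a basic helix-loop-helix factor of posterior mesenchyme that acts upstream of Shh, whereas Alx4 and Pax9 are homeobox and paired-box genes of anterior mesenchyme, and Gli3 in its repressor form opposes posterior identity. Shh binds the receptor Ptch1, aided by the coreceptors Gas1, Boc and Cdon, which releases Smo and leads to transcription of Gli1, and genes at the 5′ end of the HoxD cluster are expressed in overlapping posterior and distal domains.

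The genes that set the groups are given as a description. The posterior cells held 1039 UMIs of Hand2 (chr8:57320983-57324633, plus strand, protein-coding; positions are from GENCODE vM21 on GRCm38), or 294 CPM (276 to 312), where CPM is the UMIs of a gene per 1000000 UMIs of the group. The anterior cells held 149 UMIs of Pax9 (chr12:56691767-56712822), or 216 CPM (183 to 253), but only 6 of Alx4 (chr2:93642384-93681339), in 5 cells. The anterior group therefore rested on Pax9: 53 of its 55 cells held at least 2 UMIs of Pax9 and 1 held at least 2 of Alx4, and the whole library had 50 UMIs of Alx4 in 48 cells. At the lower bound of each rule there were 117 cells with exactly 2 UMIs of Hand2 beside the 236 left out with 1, and 30 cells with 2 UMIs of Alx4 and Pax9 beside the 84 left out with 1. Prrx1, required in both groups, was itself 1.83-fold (1.67 to 2.01) higher in the anterior cells, at 891 against 487 CPM.

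A rule on raw counts favours deeply sampled cells. Median depth was 11015 UMIs in posterior and 12389 in anterior cells, against 7833.5 in the 532 cells with none of the 3 genes, and median genes per cell were 3627 and 3927. The groups summed to 3536134 and 690497 UMIs, so the smaller anterior group limits the precision of nearly every ratio. The mitochondrial share was 2.39% and 2.22%. E11.5 shared 15 barcodes with E13.5, 10 with E15.5 and 11 with E18.5, and 3 of the 354 cells carried such a barcode. Doublets were not called and are treated as still present.

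Most genes lay close to an even ratio between the groups. Of 9681 genes with at least 20 UMIs in the groups together (the gating genes left out), 156 (1.61%) were at least 2-fold higher in posterior cells with the interval wholly above 1, and 172 (1.78%) were at least 2-fold higher in anterior cells by the same measure. This rule of size is what "counted as higher" means below, and it is not a count of changed genes, since 95% intervals over so many genes also pass some by counting error. Of the 156 posterior genes 24 had no anterior UMI; with 3 UMIs, the limit that a count of 0 allows, 16 of these are bounded at under 2-fold. The median log2 ratio was -0.015, and 48.4% of the genes lay above 1. With 99.99% intervals, a setting chosen after the data had been seen, 33 genes (0.341%) counted as higher in posterior and 41 (0.424%) in anterior cells.

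**Figure D1:**
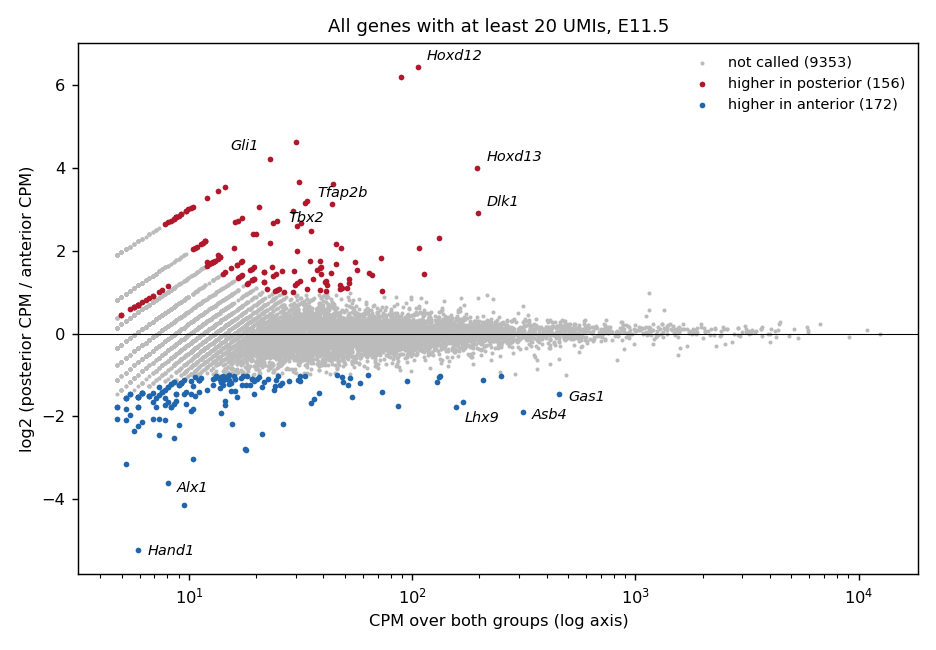
Each point is a gene with at least 20 UMIs, placed by its level over both groups in CPM (log axis) and by the log2 ratio of posterior over anterior CPM; a group at 0 UMIs is drawn as if it held 3, which puts some coloured points inside 2-fold. Red points are the 156 genes counted as higher in posterior and blue the 172 counted as higher in anterior cells. Among the labelled genes, Hoxd12, Hoxd13 and Dlk1 stand far above most genes at their levels, while Asb4, Gas1 and Lhx9 stand below most.

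Hoxd12 and Hoxd13, at the 5′ end of the HoxD cluster, stood far apart between the groups. Hoxd13 (chr2:74668310-74671599, plus strand), which patterns the digits, had 817 UMIs in 158 posterior cells and 10 UMIs in 7 anterior cells, or 231 CPM (215 to 247) against 14.5 (6.94 to 26.6), a 16.0-fold difference (8.63 to 33.4). Hoxd12 (chr2:74675013-74677705) had 447 UMIs in 158 posterior cells and 1 UMI in the anterior cells, a ratio of 87.3 (15.6 to 3455). Hoxd11 (chr2:74679557-74687016) had 535 and 21 UMIs, 151 against 30.4 CPM, or 4.97-fold (3.22 to 8.10). The difference then ended: Hoxd10 was at 53.7 against 39.1 CPM, a ratio of 1.37 (0.915 to 2.14), and Hoxd9 lay on the other side at 45.2 against 89.8 CPM, 1.98-fold (1.46 to 2.68) higher in anterior cells and just short of the 2-fold rule. Evx2, the homeobox gene next to Hoxd13, had 18 UMIs in posterior and 0 in anterior cells, too few for the rule. Of 7 HoxD genes with enough UMIs, 3 counted as higher in posterior and 0 in anterior cells, against 1.61% and 1.78% of all genes. The promoters of these 3 neighbours are shown because they moved together, with that of Asb4, a gene higher in anterior cells, for contrast. They are RefSeq windows on GRCm38.p6, plus strand, 5′ to 3′, 300 bases around a listed start each (for Hoxd11 and Asb4 the start of the gene as given here), with each CANNTG (the E-box core that basic helix-loop-helix factors bind) in capitals.
Hoxd13 chr2:74667975-74668274: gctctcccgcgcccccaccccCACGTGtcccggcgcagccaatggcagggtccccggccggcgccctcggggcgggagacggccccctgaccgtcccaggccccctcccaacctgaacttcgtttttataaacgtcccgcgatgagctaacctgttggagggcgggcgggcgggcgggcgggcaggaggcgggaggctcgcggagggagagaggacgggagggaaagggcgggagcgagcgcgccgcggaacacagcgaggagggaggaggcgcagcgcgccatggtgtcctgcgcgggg
Hoxd12 chr2:74674763-74675062: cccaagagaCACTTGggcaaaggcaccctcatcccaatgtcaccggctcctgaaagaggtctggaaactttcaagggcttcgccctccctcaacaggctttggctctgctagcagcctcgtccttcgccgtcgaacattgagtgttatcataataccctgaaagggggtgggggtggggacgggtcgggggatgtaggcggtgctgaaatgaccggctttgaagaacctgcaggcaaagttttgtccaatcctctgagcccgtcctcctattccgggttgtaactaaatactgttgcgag
Hoxd11 chr2:74679308-74679607: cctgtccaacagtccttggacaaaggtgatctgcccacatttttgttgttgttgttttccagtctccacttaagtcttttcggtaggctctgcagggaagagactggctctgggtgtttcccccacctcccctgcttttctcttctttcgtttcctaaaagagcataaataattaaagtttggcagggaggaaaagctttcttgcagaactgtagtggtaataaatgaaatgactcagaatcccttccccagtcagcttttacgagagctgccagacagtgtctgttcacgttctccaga
Asb4 chr6:5383136-5383435: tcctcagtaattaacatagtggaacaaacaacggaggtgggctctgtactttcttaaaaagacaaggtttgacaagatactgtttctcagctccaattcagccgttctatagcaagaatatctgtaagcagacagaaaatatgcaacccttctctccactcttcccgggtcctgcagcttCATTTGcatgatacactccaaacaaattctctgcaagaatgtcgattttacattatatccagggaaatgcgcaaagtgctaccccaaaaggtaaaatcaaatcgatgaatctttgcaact
The Hoxd13, Hoxd12 and Asb4 windows held 1 CANNTG each and the Hoxd11 window 0. For Hoxd11 and Asb4 the table lists another start each, not printed here, whose windows held 1 and 2. Searched on both strands, which read alike for this motif, CANNTG was in 72.3% of the 32851 promoters in the table. It was in a listed window of 66.0% of the 106 genes found among those higher in posterior cells, of 67.2% of the 131 higher in anterior cells and of 64.6% of the 7362 among all genes compared. The narrower CATCTG, a subset of CANNTG searched on both strands, was in 17.9%, 14.5% and 12.4% of these 3 sets and in 17.2% of all promoters. GACCACCCA, the core bound by Gli factors, was in 0.253% of all promoters and in 0 of the 106 and 0 of the 131. A match describes these letters and not a bound site.

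In HoxA the side changed between Hoxa11 and Hoxa13, and whether the clusters differ in this was not tested. Hoxa13 had 150 UMIs in posterior and 14 in anterior cells and was 2.09-fold (1.21 to 3.92) higher in posterior cells, the 1 HoxA gene of 7 that counted. Hoxa11 lay the other way, at 86.8 against 162 CPM, 1.87-fold (1.49 to 2.33) higher in anterior cells. In HoxC, Hoxc10, a hindlimb gene, counted as higher in anterior cells at 232 against 112 CPM (2.07-fold, 1.71 to 2.49), and the other 5 HoxC genes compared did not count either way. Of all genes compared, 1.61% counted as higher in posterior and 1.78% in anterior cells. The Hoxa13 difference was not seen among cells without a Hoxd13 UMI, a split chosen after the data had been seen. There its log2 ratio was -0.48, from 15 posterior and 9 anterior UMIs, and it did not count either way. That split itself left out 135 of the 150 posterior UMIs of Hoxa13.

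**Figure D2:**
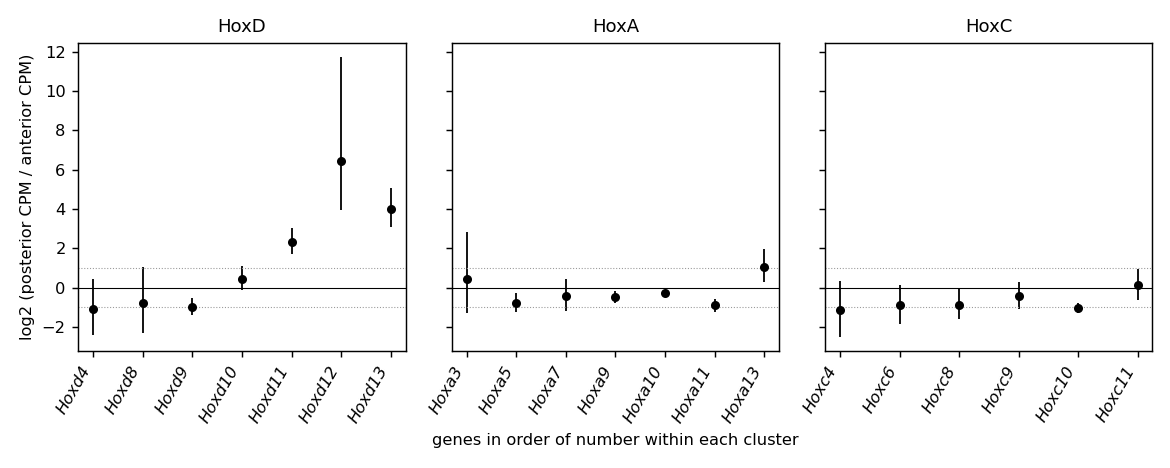
Points are log2 ratios of posterior over anterior CPM for the genes of the HoxD, HoxA and HoxC clusters with at least 20 UMIs, in order of number, with 95% counting intervals as bars; dotted lines mark 2-fold either way. In HoxD the ratio climbs from Hoxd10 at 0.46 to Hoxd11 at 2.31, with Hoxd12 and Hoxd13 above, and of the HoxA and HoxC genes Hoxa13 alone lies above the upper line.

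Among 11 posterior patterning genes with enough UMIs, 6 counted as higher in posterior cells: the 3 HoxD genes, Tbx2, Tbx3 and Osr1. Of all genes compared, 1.61% counted as higher in posterior and 1.78% in anterior cells. The median log2 ratio of the list was 2.23, against -0.015 over all genes. Its HoxD genes are also counted in the HoxD list and Osr1 in the connective tissue list, so these counts are not separate results. Tbx2, a T-box repressor at the limb margins, had 181 UMIs in 99 posterior cells and 4 UMIs in 4 anterior cells, 51.2 against 5.79 CPM, or 8.84-fold (3.39 to 32.8). Its relative Tbx3 had 155 and 9 UMIs and was 3.36-fold (1.73 to 7.49) higher. Osr1, a zinc-finger gene of connective tissue precursors, had 81 UMIs in 37 posterior cells and 3 in a single anterior cell, a ratio of 5.27 (1.74 to 26.1). The interval for Bmp2, a ligand induced by Shh, spanned 1, at 29.7 against 20.3 CPM (1.46-fold, 0.835 to 2.77), as did that for Grem1, a BMP antagonist, with 40 and 4 UMIs (1.95, 0.706 to 7.51). Ets2 was nearly even, at 90.2 and 98.5 CPM. Hand1, the close relative of Hand2, was the exception: it had 3 UMIs in 1 posterior cell and 22 UMIs in 15 anterior cells, 0.848 against 31.9 CPM, a ratio of 37.6 (11.3 to 196) in favour of the anterior cells.

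Shh itself (chr5:28456815-28467256, minus strand) was sparse. The library held 50 UMIs of Shh in 34 cells, and 19 of these were posterior cells with 24 UMIs, or 6.35% of the posterior cells (3.87 to 9.75). Among anterior cells 1 of 55 had a single UMI, and the cells with none of the 3 gating genes held 13 UMIs in 5 cells. No UMI of Shh was found in 352 endothelial cells (Cdh5 at least 2 UMIs, no Prrx1; median depth 10564), which allows a share of up to 1.04%, or in 335 epithelial cells (Epcam at least 2, no Prrx1; median depth 9225), which allows up to 1.10%. The level was 6.79 CPM in posterior and 1.45 in anterior cells, and the ratio of 4.69 (0.764 to 193) did not meet the rule, since with 24 UMIs against 1 its interval spanned 1.

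The hedgehog pathway differed at its coreceptors and at its readout. Gli1 (chr10:127329882-127341974, minus strand), the transcriptional readout of the pathway, had 96 UMIs in 73 posterior cells and 1 UMI in the anterior cells, 27.1 CPM (22.0 to 33.2) against 1.45, a ratio of 18.7 (3.29 to 748). Gas1 (chr13:60174405-60177365, minus strand), the membrane-anchored coreceptor, lay the other way: it had 1252 UMIs in 235 of 299 posterior cells and 668 UMIs in all 55 anterior cells, 354 (335 to 374) against 967 CPM (895 to 1044), 2.73-fold (2.48 to 3.0) higher in anterior cells. Boc, another coreceptor, was 2.17-fold (1.38 to 3.35) higher in anterior cells at 44.9 against 20.6 CPM. Cdon was at 9.62 and 13 CPM, with an interval that spanned 1. Of 4 receptor and coreceptor genes with enough UMIs, 2 counted as higher in anterior and 0 in posterior cells. The shares over all genes compared were 1.78% in anterior and 1.61% in posterior cells. Smo, the signal transducer, was at 94.2 and 101 CPM, Sufu at 21.2 and 24.6, and Gli3 at 49.5 and 73.9, which made Gli3 1.49-fold (1.07 to 2.05) higher in anterior cells and below the 2-fold rule. The targets that feed back on the pathway were too sparse to compare: Ptch1 had 12 and 2 UMIs and Hhip 10 and 0. Of 4 genes for the ligand and its release with enough UMIs (Shh, Disp1, Scube1 and Scube3), 0 counted either way. At the shares over all genes, a list of 4 would mostly give 0.

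**Figure D3:**
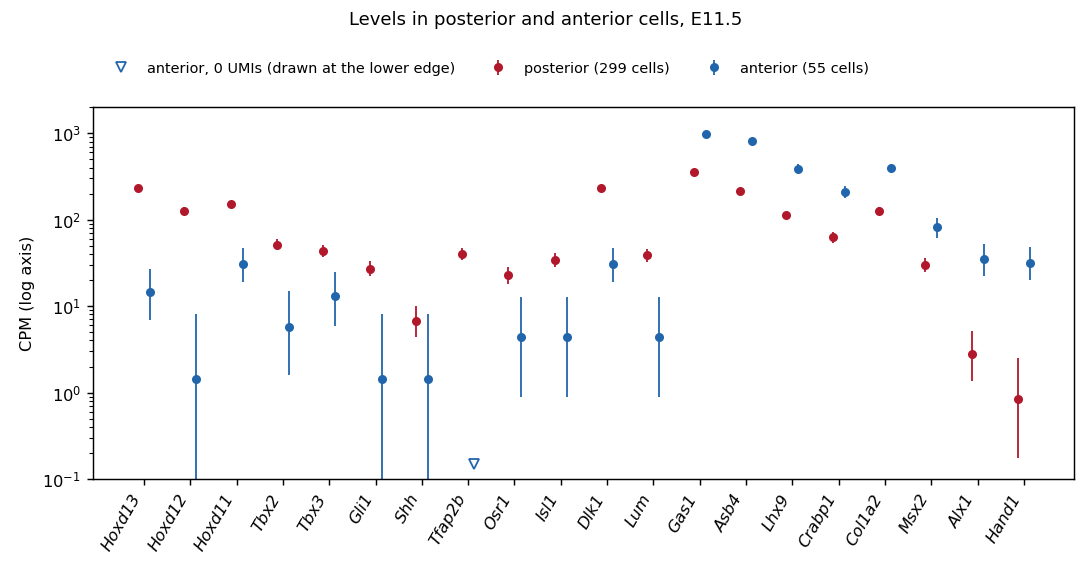
Levels in CPM (log axis) of 20 genes in the 299 posterior (red) and 55 anterior (blue) cells, with exact Poisson 95% intervals as bars; an open triangle marks a gene without an anterior UMI. Genes from Hoxd13 to Lum lie higher in posterior cells, with the widest intervals at Gli1, Shh and Hoxd12, which have 1 anterior UMI each, and genes from Gas1 to Hand1 lie higher in anterior cells.

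On the anterior side, 4 of 9 anterior patterning genes with enough UMIs counted as higher in anterior cells (Alx1 and Asb4 among them) and 0 in posterior cells, with a median log2 ratio of -1.20. Shares over all genes compared were 1.78% and 1.61%. Alx1 had 10 and 24 UMIs, a ratio of 12.3 (5.67 to 28.8). The zinc-finger factor Zic2 was at 40.7 and 73.9 CPM, 1.81-fold (1.29 to 2.51) and short of the rule. Asb4 (chr6:5383386-5433022), which encodes an ankyrin and SOCS-box protein, had 765 UMIs in 173 posterior and 556 UMIs in 54 of 55 anterior cells, 216 (201 to 232) against 805 CPM (740 to 875), 3.72-fold (3.33 to 4.16). The Iroquois genes of this list did not separate the groups: Irx3 had 23 and 3 UMIs and Irx5 18 and 2. Pax1, the paralogue of Pax9, had 17 and 0 UMIs, of which 1 posterior cell held 94.1%. How the counting treated sequence shared between members of these families is not given.

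The 12 highest ratios among genes with at least 50 UMIs in at least 20 cells, all in favour of posterior cells, included several genes with no anterior UMI. Cntfr, a receptor subunit for ciliary neurotrophic factor, had 187 UMIs in 75 posterior cells and was at least 12.2-fold higher, taking 3 UMIs as the limit a count of 0 allows. Tfap2b, an AP-2 transcription factor, had 142 UMIs in 61 posterior cells and was at least 9.24-fold higher. For Ntm the bound was at least 5.34-fold, for the proteoglycan gene Dcn at least 3.71-fold and for Lrrn3 at least 3.32-fold. Sulf1, an enzyme that trims heparan sulfate, had 129 and 2 UMIs (12.6, 3.42 to 105), Tmem30b 127 and 1 (24.8, 4.37 to 987) and Fgf18 60 and 1 (11.7, 2.02 to 470). The remaining gene was RP24-459A4.1 (375 and 1 UMIs; ratio 73.2, 13.1 to 2900), which GENCODE names Hand2os1: it runs on the minus strand at chr8:57281117-57324233 and overlaps Hand2, so that without a strand-aware count its reads cannot be told apart from those of the gating gene. Dlk1, an imprinted growth regulator named after its values were seen, had 812 UMIs in 165 posterior and 21 in 6 anterior cells (7.55-fold, 4.91 to 12.3).

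Of the 12 lowest ratios, that of Asb4 is given above. Lhx9 (chr1:138825186-138848577, minus strand), a LIM-homeobox gene of distal mesenchyme, had 397 and 267 UMIs, 112 against 387 CPM, 3.44-fold (2.94 to 4.03) higher in anterior cells. Crabp1, a retinoic acid binding protein, was 3.38-fold (2.72 to 4.18) higher at 210 against 62.2 CPM, Col1a2, a collagen gene, 3.13-fold (2.68 to 3.65) at 394 against 126, and the nuclear receptor gene Nr4a2 3.21-fold (2.26 to 4.52). E130114P18Rik (5.35-fold), Figf, a vascular growth factor gene (4.54-fold), and the adhesion gene Alcam (3.77-fold) followed with 25 to 46 anterior UMIs each. In 2 of the 12 a single cell decided the value: 1 anterior cell held 72.1% of the 43 UMIs of Pxmp4 and 1 held 83.3% of the 24 UMIs of 2810403D21Rik, whose log2 ratio was 0.64 when only cells of 8000 to 16000 UMIs were compared.

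Of 13 connective tissue and tendon genes compared, 6 counted as higher in posterior cells (Scx, Osr1, Osr2, Dcn and Lum among them) and 0 in anterior cells, with a median log2 ratio of 1.27. Over all genes compared, 1.61% counted as higher in posterior and 1.78% in anterior cells. The collagen gene Col1a2, given above as higher in anterior cells, is not in this list, so the 0 holds for the list alone. Lum, a proteoglycan gene, had 137 UMIs in 37 posterior cells and 3 in 3 anterior cells (8.92-fold, 2.99 to 43.8). Osr2 was at 71.5 against 26.1 CPM (2.74-fold, 1.70 to 4.71). For Osr2 the direction turned among cells with a Hoxd13 UMI, with a log2 ratio of -1.59, where the anterior group had only 7 cells. Of 5 hindlimb identity genes compared 1 counted each way, with a median log2 ratio of -0.57. Isl1, a LIM-homeobox gene of the hindlimb field, was 7.81-fold (2.61 to 38.4) higher in posterior cells with 120 UMIs against 3. Hoxc10, given above, counted as higher in anterior cells, and Tbx4 (12.4 and 20.3 CPM) and Pitx1 (329 and 490) did not count either way.

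Signalling genes counted on both sides, where 1.61% of all genes compared counted as higher in posterior and 1.78% in anterior cells. In the WNT list of 18 compared, the agonist Rspo3 (54.9 against 13 CPM; 4.21-fold, 2.17 to 9.34) and the antagonist Dkk2 (66 and 2 UMIs; 6.44, 1.71 to 54.3) counted as higher in posterior cells and 0 in anterior cells. In the retinoic acid list of 10, Rdh10, which makes retinal, was higher in posterior cells with 48 and 2 UMIs (4.69, 1.23 to 39.8), and Crabp1 and Dhrs3 (2.29-fold, 1.48 to 3.48) in anterior cells. Aldh1a2, which makes retinoic acid, had 47 and 3 UMIs, with an interval of 0.985 to 15.4. Of 19 BMP genes 1 counted each way. Fst, a secreted antagonist, had 23 UMIs in posterior and 0 in anterior cells, a bound of only 1.5-fold with 3 UMIs as the limit. Msx2, a BMP-responsive homeobox gene, was higher in anterior cells at 81.1 against 30.0 CPM (2.71-fold, 1.92 to 3.77), and Msx1 lay the same way at 490 against 250 CPM (1.96-fold, 1.72 to 2.22), just short of the rule. Of 15 genes compared in the FGF list only Spry1, a feedback inhibitor, counted, at 43.4 against 21.5 CPM (2.02-fold, 1.28 to 3.12, higher in anterior cells). The ligand gene Fgf18, given above, is not in that list and counted as higher in posterior cells. Among 19 ephrin and guidance genes Efna1 (3.39-fold, 1.67 to 8.01), Ephb2 (2.32-fold, 1.22 to 4.97) and Sema3c (3.38-fold, 1.10 to 16.9) were higher in posterior cells and Nrp1 (2.20-fold, 1.76 to 2.74) and Efna5 in anterior cells. Sema3c turned to a log2 ratio of -0.054 with 1 UMI as the lower bound of both groups.

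Proximal and distal limb bud genes did not divide along the axis as whole lists. Of 12 distal genes 2 counted as higher in posterior (Hoxa13 and Tfap2b) and 3 in anterior cells (Lhx9, Tfap2c and Msx2), with a median log2 ratio of -0.045. Both distal counts were above the shares over all genes, 1.61% in posterior and 1.78% in anterior cells. Of 9 proximal genes, Osr2 counted as higher in posterior cells, and the median was -0.25. The general mesenchymal gene Prrx2 was at 423 and 841 CPM (1.99-fold, 1.81 to 2.19, higher in anterior cells), Shox2 at 121 and 200, and Tbx18 at 61.1 and 106. No gene counted either way among 18 S phase genes (median log2 ratio 0.14), 18 G2/M genes (0.050), 13 immediate early and heat shock genes (0.078), 9 cell death genes (-0.13) and 9 condensation and cartilage genes (-0.30). At the shares of 1.61% and 1.78% over all genes, lists of this size would hold few or none, so these counts say little.

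Markers of other cell types were low in both groups. Summed UMIs of 10 endothelial markers had a median of 0 in posterior (highest 5) and anterior cells (highest 4), against 69 in the endothelial cells, and 12 epithelial markers a median of 0 (highest 11 and 3), against 46 in the epithelial cells. The blood and macrophage list also had a median of 0, with 49 UMIs in 1 posterior cell and at most 2 in anterior cells, and the muscle list reached at most 1 UMI in any cell of either group, with Pax7, Myf5, Myog and Met at 0. Pericyte and smooth muscle markers had a median of 1 summed UMI in both groups, against 0 in both reference groups, with 3 or more in 22 posterior and 3 anterior cells. Neural crest and Schwann markers had a median of 0, with 3 or more in 19 posterior (highest 10) and 2 anterior cells (highest 4). Among them Kit counted as higher in posterior cells with 25 UMIs against 0, a bound of only 1.63-fold. The part of these markers in the results was not tested. Limb mesenchyme genes varied in how widely they were detected. Pitx1 was in 276 of 299 posterior and all 55 anterior cells, and Prrx2 in 253 and 50. Msx1 was in 169 and 42 cells, and Tbx4 in only 41 and 10.

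Shares of cells were compared at equal depth, thinned to 5000 UMIs per cell, which left out 18 posterior and 2 anterior cells. The 46 named genes that counted were picked on UMIs of these same cells, so their shares are a description and not a check. Of these, 45 had the larger share on the side of the higher level. The exception was 2810403D21Rik, in 5.69% of posterior and 1.89% of anterior cells, and Pxmp4 was nearly even at 5.34% and 5.66%. Grem1, which did not count, was in 3.56% and 5.66%, against the order of its levels. Hoxd13 was found in 43.1% of posterior and 5.66% of anterior cells, beside 0.946% of endothelial and 0.667% of epithelial cells, and in 52.8% and 12.7% without thinning. Hoxd12 was found in 34.5% and 0% after thinning, beside 1.58% and 1.67% of the reference cells. Gli1 was found in 10.7% and 1.89%, beside 0% and 5.0%. For Gas1 the shares were 65.5% and 96.2%, beside 6.94% and 45.7%. Asb4 was found in 43.8% and 94.3%, but also in 63.4% of endothelial cells, above the posterior share. Tfap2b was found in 13.2% and 0%, and in 61.7% of epithelial cells. A share of 0 among the 53 thinned anterior cells allows up to 6.72%, the upper bound of its exact interval. How much RNA from outside a cell adds to these shares was not tested.

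Levels of some genes ran in 1 direction with the UMIs of Hand2. Asb4 was at 774 CPM in cells with 3 or more UMIs of Alx4 and Pax9, 831 with 2 and 892 with 1, so it was not higher with more of them. It was at 538 in cells with none of the 3 genes, 491 with 1 UMI of Hand2, 282 with 2, 235 with 3 and 145 with 4 or more. Tbx2 ran the other way, from 20.2 CPM with none to 26.3, 31.3, 47.5 and 71.7 over the same Hand2 classes. Hoxd13 did not climb steadily: it was at 75.4 CPM with none, 174 with 1 UMI of Hand2, 281 with 2, 216 with 3 and 194 with 4 or more, while it stayed between 6.23 and 18.5 in the 3 Alx4 and Pax9 classes. In the 35 cells that held both kinds of gating gene Hoxd13 was at 25.4 CPM, Asb4 at 689 and Gas1 at 851. In the 20 cells with Alx4 but no Pax9 or Hand2, Asb4 was at 815 CPM, Tbx2 at 30.8 and Lhx9 at 174, whereas in the 115 with Pax9 alone Tbx2 was at 5.68 and Lhx9 at 364. Median depth rose with these counts, from 7833.5 UMIs with none to 12125 with 4 or more of Hand2.

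**Figure D4:**
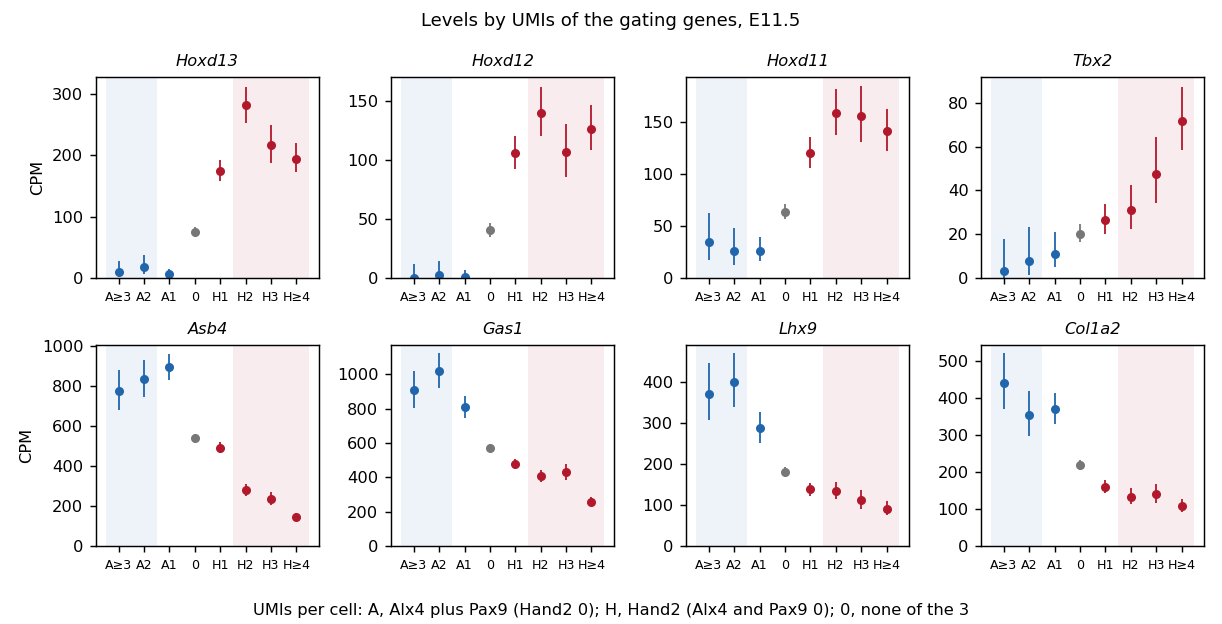
Levels in CPM of 8 genes in Prrx1 cells ordered by UMIs of the gating genes: A is Alx4 plus Pax9 with no Hand2, H is Hand2 with no Alx4 or Pax9, and 0 is none of the 3; shaded classes are the anterior (blue) and posterior (red) groups and bars are exact Poisson 95% intervals. Asb4 is at 774 at A3 or more and 892 at A1 and runs down to 145 at H4 or more, Tbx2 climbs to 71.7, and Hoxd13 is highest at H2 with 281.

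Cells left out by the rule gave the same measure in cells it did not use, though from the same library and embryos: 236 with 1 UMI of Hand2 and 84 with 1 UMI of Alx4 or Pax9. In that comparison 1.22% of 9101 genes counted as higher on the Hand2 side and 1.03% on the other. Of the 156 posterior genes 135 had enough UMIs there, and 99 (73.3%) lay on the same side of 1, against 51.0% of all genes. Of the 172 anterior genes 153 had enough, and 115 (75.2%) lay on the same side, against 49.0% of all genes. Of these, 27 and 21 met the rule again on the same side, and 4 and 2 met it on the opposite side. With the 99.99% interval 31 of 33 posterior genes and 35 of 39 anterior genes lay on the same side. Hoxd13 was 28.0-fold (11.9 to 86.7) higher in cells with 1 UMI of Hand2, at 174 against 6.23 CPM, Hoxd12 had 237 UMIs against 1, Gli1 was 5.16-fold (2.11 to 16.4) and Rspo3 4.61-fold (2.35 to 10.3) higher. Of the 46 named genes that counted in the groups, 41 lay on the same side here and 21 met the rule again. Hand1 was 3.67-fold (1.82 to 7.51) and Alx1 1.40-fold (0.477 to 3.70) higher on the Alx4 and Pax9 side, against 37.6-fold and 12.3-fold between the groups. Osr1 was 1.71-fold (0.822 to 3.99) and Tbx3 1.71-fold (0.954 to 3.30) higher on the Hand2 side, and of these 4 Hand1 alone met the rule. Asb4 and Gas1 kept their side without meeting it: Asb4 was at 491 against 892 CPM and Gas1 at 477 against 807. Msx2, at 54.9 and 51.1 CPM, and Sema3c, at 13.4 and 23.7, lay on the other side.

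The posterior cells were not uniform. Split after the data had been seen, 158 held a UMI of Hoxd13 and 141 did not, at median depths of 13677 and 8782 UMIs, a gap that the split itself can set. All 24 UMIs of Shh were in cells with Hoxd13. Tfap2b had 139 UMIs with and 3 without Hoxd13 (ratio 28.2, 9.45 to 138), Hoxa13 135 and 15 (5.48, 3.20 to 10.1) and Msx1 736 and 147 (3.05, 2.55 to 3.66). Lhx9, lower in posterior cells as a whole, was 2.84-fold (2.19 to 3.73) higher with Hoxd13, at 149 against 52.3 CPM. Of the 13 connective tissue and tendon genes 8 counted as higher without Hoxd13 and 0 with it, where 3.89% of 9346 genes counted as higher without and 1.64% with it. Osr2 had 209 UMIs without and 44 with Hoxd13 (7.81-fold, 5.62 to 11.1), Osr1 was at 49.3 and 6.82 CPM (7.23-fold, 4.08 to 13.6), and Lum at 76.3 and 15.9, so that these 3 were lower but not absent with Hoxd13. Shox2, of the proximal list, was at 227 and 57.3 CPM. Gli1 was at 28.7 CPM with and 24.7 without Hoxd13, so it did not follow this division, and neither did Tbx2 at 49.6 and 53.8.

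The 19 posterior cells with a UMI of Shh, median depth 15108 UMIs against 10754.5 in the other 280, differed from them in several genes. Gli1 had 1 UMI in them and 95 in the rest, 3.67 against 29.1 CPM, a ratio of 0.126 (0.00316 to 0.720). Asb4 had 5 and 760 UMIs, 18.4 against 233 CPM, 12.7-fold (5.41 to 39.2) lower in cells with Shh. Gas1 was at 176 against 369 CPM, and Rspo3 had 2 UMIs against 192. Higher in cells with Shh were Msx2 (95.5 against 24.5 CPM; 3.89-fold, 2.40 to 6.13), Bmp4 (349 against 115; 3.04-fold, 2.40 to 3.81), Hoxa13 (110 against 36.8; 3.0-fold, 1.94 to 4.5), Tbx2 (132 against 44.4; 2.98-fold, 2.01 to 4.31) and Hoxd13 (327 against 223; 1.46-fold, 1.16 to 1.83). Cells with Shh were picked by 1 or a few UMIs of a sparse gene, so cells that express it without a captured UMI are among the 280. All 19 also held Hoxd13, while the 141 posterior cells without Hoxd13 are all among the 280. This division therefore overlaps with that by Hoxd13, and their parts in these differences were not tested apart.

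**Figure D5:**
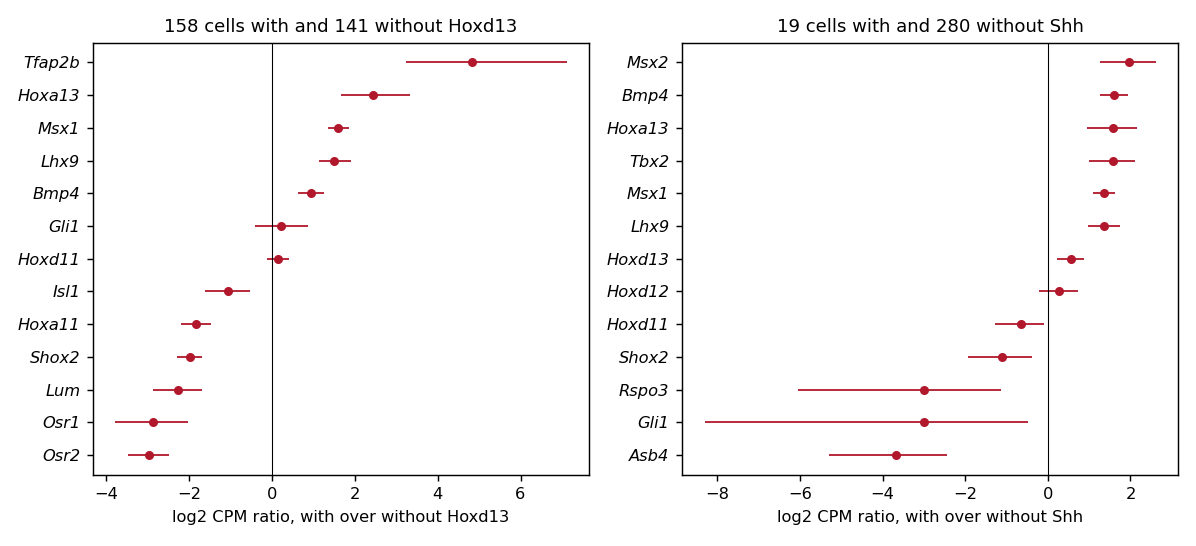
Points are log2 ratios of CPM among the 299 posterior cells, with over without a UMI of Hoxd13 (left; 158 and 141 cells) and with over without a UMI of Shh (right; 19 and 280 cells), with 95% counting intervals as bars. Tfap2b and Hoxa13 lie with Hoxd13 and Osr1 and Osr2 without it, and Msx2 and Bmp4 lie with Shh while Gli1 and Asb4 lie without it.

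The same rule at E13.5 found 35 posterior and 13 anterior cells, and at E15.5 and E18.5 30 and 13 posterior cells with 1 anterior cell each, which were not compared. At E13.5 3.77% of 4086 genes counted as higher in posterior and 3.4% in anterior cells. Of 38 posterior genes of E11.5 with enough UMIs, 29 (76.3%) lay on the same side at E13.5, against 52.7% of all genes, and 10 met the rule again. Of 33 anterior genes 14 (42.4%) lay on the same side, against 47.3% of all genes, and 4 met the rule. Hoxd13 had 58 UMIs in posterior and 0 in anterior cells at E13.5, Hoxd11 21 and 0, Dcn 73 and 1, and Ntm 31 and 0. Gas1 was again higher in anterior cells, with 113 and 82 UMIs. Shh had 0 UMIs in either group at E13.5. Asb4 had 45 and 9 UMIs, of group totals of 506524 and 123074. It thus lay on the posterior side at E13.5, opposite to E11.5, without meeting the rule.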

How the data were processed

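Single cells of the hindlimb were sequenced in 1 droplet library per stage. The authors deposited whole-number counts, the UMIs of each gene in each barcode. The submitters' processing notes name Cell Ranger, Seurat 2.3.4 and the build mm10, and the version of Cell Ranger and its use of strand were not given in the sources used here. The E11.5 matrix holds 2683 barcodes, of which the 2640 kept cells have a median of 8943 UMIs.

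Counts were summed over the cells of each group and divided by the group's total (Python 3.11.15, numpy 2.4.6, scipy 1.17.1, pandas 2.3.3, with figures by matplotlib 3.10.9). Ratios have exact conditional binomial intervals, levels exact Poisson intervals and shares exact Clopper-Pearson intervals, all at 95%. A gene counted as higher at a ratio of at least 2, with its interval off 1 and at least 20 UMIs. A count of 0 was taken to allow 3 UMIs over the group. The procedure was first tested on simulated data. Named genes are the members of the posterior, anterior, hedgehog and HoxD lists, the 12 highest and 12 lowest ratios among genes that counted with at least 50 UMIs in at least 20 cells, and the 2 to 4 members of each other list farthest from a ratio of 1, at 50 UMIs or more; Dlk1, Thra, Matn3 and the members named beside the count of a list were chosen after their values were seen. The groups and gene lists were chosen with earlier results of these data known. Of 33456 gene entries, 32655 were found in GENCODE vM21. A few genes of the lists are not reported here. Alternatives changed the gates, filters, scaling, depth and interval.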

Additional observations from a re-analysis of the deposited data

Results flagged for a closer look

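Genes that counted as higher in one group at E11.5 and in the other at E13.5 were singled out; there were 5, and the difference between stages was not tested, since each stage is 1 library with 35 posterior and 13 anterior cells at E13.5. Crabp1 had a log2 ratio of posterior over anterior of 3.29 at E13.5, with 121 UMIs against 0 and the 0 set to 3, and -1.76 at E11.5. Thra, a thyroid hormone receptor gene, was at 3.21 at E13.5 (38 and 1 UMIs) and -1.17 at E11.5 (143 and 63). Matn3, a cartilage matrix gene, was at 1.60 (250 and 20 UMIs) and -1.51 (18 and 10). Dlk1 was at -1.07 (375 and 191 UMIs) and 2.92 (812 and 21). Osr2 was at -2.36 (12 and 15 UMIs) and 1.46 (253 and 18).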

How the results depend on the processing

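The counts of 156 posterior and 172 anterior genes at E11.5 moved by over 1.5 times under these settings. Weighting each cell equally, without an interval, gave 511 and 280; a fold of 1.5 gave 240 and 385; the 99.99% interval gave 33 and 41. Only cells with Hoxa13 gave 102 posterior genes, only cells with Hoxd13 gave 88, and a minimum of 50 UMIs gave 86 anterior genes. Other settings stayed between 114 and 173 posterior and between 116 and 251 anterior genes, but not with the same genes: after thinning to 5000 UMIs, 51 of 114 and 45 of 125 were shared with the counts above. At E13.5 the 154 posterior genes became 80 with a minimum of 50 UMIs, and the 139 anterior genes 47 with that minimum and 274 with none. The share of genes on the same side at E13.5 was 60.6% and ranged from 50% to 68.2%.

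Of 46 named genes that met the rule, 31 still met it after thinning, 34 with gates at 1 UMI, 37 with gates at 3, 27 in cells with Hoxa13, 21 in cells with Hoxd13, and 35 to 46 under the other settings. Log2 ratios changed sign as follows, and the cause was not tested. Only cells with Hoxd13 (158 and 7) gave Osr2 -1.59 (44 and 7 UMIs), and Pxmp4 and 2810403D21Rik 0.22 each (22 and 1 UMIs each). Only cells without Hoxd13 gave Hoxa13 -0.48 (15 and 9). Only cells with Hoxa13 (87 and 11) gave Dkk2 -0.31 (6 and 1), Pxmp4 1.01 (15 and 1) and 2810403D21Rik 0.69 (12 and 1). Thinning gave 2810403D21Rik 0.0085 (16 and 3), and cells of 8000 to 16000 UMIs gave it 0.64 (23 and 3). Gates at 1 UMI gave Sema3c -0.054 (82 and 22). Of these, Osr2 alone met the rule on its new side. A gene with a group at 0 whose limit of 3 UMIs gave no direction has no value in these settings. A gate on Alx4 alone left 1 anterior cell and was not run. No paired analysis was possible because both groups come from 1 library. The 55 anterior cells, 690497 UMIs in all, limit what can be seen: a gene under 20 UMIs could not be compared.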
